A study of Mus musculus with 6 samples.

Results

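Rtp1, Rtp2, Reep1, Reep6 and Gfy encode proteins that help odorant receptors leave the cell body of an olfactory sensory neuron or work in its Golgi. The set was fixed as these 5 symbols, with no measured value in the rule, and all 5 were among the 53686 genes of the count table. The tissue was the main olfactory epithelium of C57BL/6J mice, whose poly-A RNA was read in 3 libraries from mice hemizygous for 5x21-OR1A1, a transgene with the human odorant receptor OR1A1, and 3 libraries from wild-type mice. The labels number the replicates and say nothing of the animals, so every p-value rests on the spread of these 6 libraries. The labels name no age, no sex and no promoter for the transgene. The series title poses the question of how neurons choose a receptor when 1 receptor transgene is highly represented, and the comparison here asks how the RNA of the export proteins stood in that tissue.

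An odorant receptor is made in the endoplasmic reticulum and is poorly released to the surface in most cells. RTP1 and RTP2, the receptor transporting proteins, are single-pass membrane proteins of olfactory neurons that bind odorant receptors and carry them to the plasma membrane, and mice without both have fewer receptors at the cilia and an altered pattern of receptor choice. REEP1 and REEP6 belong to a family of receptor expression-enhancing proteins that also shape tubules of the endoplasmic reticulum and traffic cargo from it. Gfy, called goofy, is a membrane protein of the olfactory neuron's Golgi, and mice that lack it place the olfactory adenylyl cyclase ADCY3 poorly in their cilia.

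The 5 genes lie on 4 chromosomes of GRCm38, all as protein-coding genes. Rtp1 is on chromosome 16 at 23429133 to 23433960 on the plus strand and Rtp2 on the same chromosome at 23925548 to 23932394 on the minus strand, 491.6 kb apart with 8 annotated genes between them, among them the relative Rtp4. Reep1 is on chromosome 6 at 71707561 to 71810710 on the plus strand, Reep6 on chromosome 10 at 80329953 to 80336441 on the plus strand and Gfy on chromosome 7, minus strand, at 45176349 to 45179569. No exon of the 5 overlapped an exon of another annotated gene, and the 2 unconfirmed gene models inside Reep1 lie in its introns. Rtp1 and Rtp2 are paralogs, and the longest exact stretch that their transcripts share was 47 bases, shorter than the reads of 100 bases per the labels. Such stretches covered 0.809% of 31-base windows of the Rtp1 transcript and 1.04% of those of Rtp2, so few reads could have been confused between them.

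The start region of Gfy, the member with the largest difference, is shown because it holds a match to the palindrome TCCCNNGGGA, the core of the site bound by early B-cell factors (EBF), transcription factors of olfactory neurons. The sequence is from RefSeq on GRCm38.p6, minus strand, at chr7:45179598-45179847, the 250 bases before the annotated start, and capitals mark the match.
Gfy upstream: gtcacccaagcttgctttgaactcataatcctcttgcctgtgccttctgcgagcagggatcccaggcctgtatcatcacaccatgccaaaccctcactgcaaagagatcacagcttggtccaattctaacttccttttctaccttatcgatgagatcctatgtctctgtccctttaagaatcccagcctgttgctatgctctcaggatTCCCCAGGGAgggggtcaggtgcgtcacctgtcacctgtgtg
The palindrome reads the same on both strands and was present in 0.779% of 32851 such 250-base windows. It had no match in the windows of Rtp2 and Reep1. TAATNA, the core of homeodomain sites, was searched on both strands, was present in 24.3% of all windows and had no match in any of these 3. Rtp1 and Reep6 had no sequence in the source of these windows and were not searched. The Rtp2 window, 23930795 to 23931044, lies within the gene span given above, and the Reep1 window lies partly within its span. The outermost start of Rtp2 was thus not searched. A match is a string of letters, and binding was not measured.

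All 5 members had lower values in 5x21-OR1A1 than in wild-type tissue, and 1 of them, Gfy, passed the threshold of an adjusted p under 0.05. Over all 19267 genes tested, 2.20% were called lower and 0.519% higher by the same edgeR quasi-likelihood test with Benjamini-Hochberg adjustment. The log2 fold changes ran from -0.76 in Gfy to -0.28 in Reep6 with a median of -0.31, against a median of 0.02 over all genes, of which 9068 lay below 0. Levels are in CPM, in which TMM scaling brings the counts of every library to one total, unless said otherwise. In a bulk tissue, fewer neurons and less RNA per neuron cannot be told apart.

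**Figure D1:**
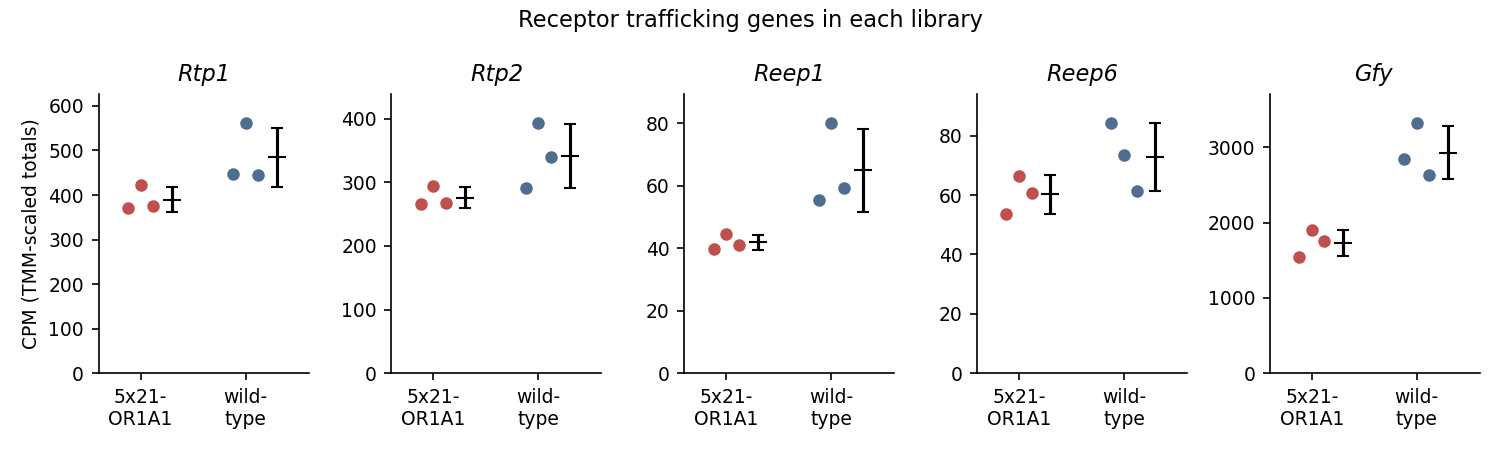
CPM of the 5 genes in each library, 3 of 5x21-OR1A1 (left) and 3 of wild-type (right) per panel, with the mean and SD as black bars on linear axes from 0. The groups are apart for Rtp1, Reep1 and Gfy, and they overlap for Rtp2, where 5x21-OR1A1 library 2 stands at 294.4 CPM, and for Reep6, where wild-type library 3 stands at 61.3 CPM.

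Gfy fell to 59.1% of its wild-type level. It had 1547, 1897 and 1749 CPM in the 5x21-OR1A1 libraries, against 2839, 3316 and 2628 CPM in the wild-type libraries. Every 5x21-OR1A1 library lay below every wild-type library, which was so for 12.5% of all genes tested. The log2 fold change was -0.76 (SE 0.14, edgeR adjusted p = 0.0303). The fall was not called without 5x21-OR1A1 library 1, 2 or 3 (edgeR adjusted p = 0.148, 0.0921 and 0.129) or without wild-type library 2 (0.0576), nor with sex as a covariate (0.0700), while the log2 fold change stayed between -0.83 and -0.65. Gfy was also the most abundant member per length of exon, at 936 ± 94.9 CPM per kb in 5x21-OR1A1 and 1583 ± 191 CPM per kb in wild-type tissue (SD, n = 3 each), ranks 42 to 44 and 26 to 34 among 49627 genes with an exon length.

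Rtp1 and Rtp2 had nearly the same difference, and neither passed. Rtp1 had 371.5, 422.5 and 374.7 CPM in the 5x21-OR1A1 libraries, against 447.8, 560.6 and 445.0 CPM in the wild-type libraries. The groups of Rtp1 were apart, with wild-type library 2 well above the rest. The log2 fold change of Rtp1 was -0.31 (SE 0.12, edgeR adjusted p = 0.242). Rtp2 had 265.0, 294.4 and 267.9 CPM in the 5x21-OR1A1 libraries, against 290.9, 392.2 and 339.5 CPM in the wild-type libraries. Here 5x21-OR1A1 library 2 lay just above wild-type library 1, so the groups overlapped, and the log2 fold change was -0.31 (SE 0.12, edgeR adjusted p = 0.253). Without wild-type library 2, the highest of its group for both genes, the log2 fold changes were -0.19 for each (edgeR adjusted p = 0.416 and 0.442). Per length, Rtp1 stood at 125 ± 9.15 CPM per kb in 5x21-OR1A1 and 155 ± 21.1 CPM per kb in wild-type tissue, and Rtp2 at 103 ± 6.06 and 127 ± 18.96 CPM per kb in the same order (SD, n = 3 each), so Rtp1 lay above Rtp2 in each library. Within each library the ratio of Rtp1 to Rtp2 counts was 1.40, 1.43 and 1.40 in 5x21-OR1A1 and 1.54, 1.43 and 1.31 in wild-type tissue, a log2 difference of -0.01 (SE 0.068; two-sided exact permutation test, p = 0.8).

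Reep1 stood nearer to Gfy than to the Rtp genes. It had 39.8, 44.6 and 41.2 CPM in the 5x21-OR1A1 libraries, against 55.5, 80.0 and 59.3 CPM in the wild-type libraries. The groups were apart, and wild-type library 2 was again the highest. The log2 fold change of -0.63 (SE 0.14) did not pass, at an edgeR adjusted p of 0.0581. It passed by DESeq2 (adjusted p = 0.000810), without a filter on low counts (0.0141), with the replicate number as a block (0.0459) and without wild-type library 1 or 2 (edgeR adjusted p = 0.0388 and 0.0494). It did not pass by limma-voom (adjusted p = 0.0674), by library totals (edgeR, 0.0713) or with sex as a covariate (edgeR, 0.136). Nor did it pass without 5x21-OR1A1 library 1, 2 or 3 (edgeR adjusted p = 0.221, 0.152 and 0.210) or without wild-type library 3 (0.0833).

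Reep6 had 53.6, 66.5 and 60.7 CPM in the 5x21-OR1A1 libraries, against 84.2, 73.5 and 61.3 CPM in the wild-type libraries. Wild-type library 3 lay among the 5x21-OR1A1 libraries, so the groups overlapped. The log2 fold change was -0.28 (SE 0.13, edgeR adjusted p = 0.326). In wild-type tissue Reep6 had its highest value in library 1, where the other 4 members had their highest in library 2. The log2 fold change was -0.17 without wild-type library 1 and -0.39 without wild-type library 3. Per length, Reep6 was above Reep1 in every library, at 24.0 ± 2.58 CPM per kb in 5x21-OR1A1 and 29.1 ± 4.56 CPM per kb in wild-type tissue, against 10.2 ± 0.604 and 15.8 ± 3.20 CPM per kb for Reep1 (SD, n = 3 each). The order of levels per length was thus Gfy, Rtp1, Rtp2, Reep6 and Reep1 in both genotypes, and the ranges of Rtp1 and Rtp2 in wild-type tissue overlapped.

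Mature neuron markers were lower as well, and their median lay further below 0 than Rtp1, Rtp2 and Reep6. All 12 mature olfactory sensory neuron markers tested had negative log2 fold changes, with a median of -0.66, and 4 fell, against 10 called by DESeq2. The 4 were Gng13, a G protein subunit (-0.81), Omp, the olfactory marker protein (-0.76), Umodl1 (-0.71) and Cnga4, a subunit of the olfactory cation channel (-0.68). None of the 4 was called without 5x21-OR1A1 library 1, 2 or 3 or without wild-type library 2 or 3. With sex as a covariate none of the 4 was called either (edgeR adjusted p = 0.0784 to 0.107). The summed markers stood at 11932 to 13145 CPM in 5x21-OR1A1 libraries, against 16759 to 22835 CPM in wild-type libraries. In the same libraries 4 of 12 immature neuron markers and 7 of 14 progenitor markers rose, with list medians of 0.44 and 0.57, and 1 immature marker, Stmn4, fell. Summed sustentacular cell markers stood at 21406 to 22003 CPM in 5x21-OR1A1 and 23307 to 24725 CPM in wild-type libraries, and 0 of 10 tested passed edgeR (2 at an unadjusted p under 0.05, 2 by DESeq2 and 0 by limma-voom). Of the markers of horizontal basal, gland, microvillous, respiratory ciliated and ensheathing glial cells, 0 passed edgeR (0 to 3 per list at an unadjusted p under 0.05, 0 or 1 by DESeq2 and 0 by limma-voom). Among 13 immune cell markers 1 rose, Jchain, the joining chain of secreted antibodies (1.52, edgeR adjusted p = 0.0438), and among 11 tested markers of brain and olfactory bulb 2 fell, the glutamate transporter Slc1a2 (-0.84) and the transcription factor Eomes (-0.90; edgeR adjusted p = 0.0305 and 0.0340). The brain and olfactory bulb list as a whole had a median of 0.03, with 5 of the 11 below 0. The part of these markers in the members' values was not tested.

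Counted against the mature neuron markers of the same library, Rtp1 and Rtp2 were higher in 5x21-OR1A1 libraries, and the other 3 members overlapped between the groups. Per 1000 counts of the 12 markers, Rtp1 had 30.5, 32.1 and 31.4 counts in 5x21-OR1A1 libraries, against 26.7, 24.5 and 21.6 counts in wild-type libraries. Rtp2 had 21.8, 22.4 and 22.5 counts in 5x21-OR1A1 libraries, against 17.4, 17.2 and 16.5 counts in wild-type libraries. For both, every 5x21-OR1A1 library lay above every wild-type library. Marker counts were a smaller share of all counts in 5x21-OR1A1 libraries, so a gene with an unchanged share also stands higher by this measure. How many of all genes lacked overlap on this scale was not counted, so the separation does not set Rtp1 and Rtp2 apart from other genes. The log2 differences were 0.37 (SE 0.092) for Rtp1 and 0.38 (SE 0.027) for Rtp2, and a two-sided exact permutation test gave p = 0.1 for each, which is as low as it can go with 3 libraries against 3.

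Gfy and Reep1 differed little by this measure. Gfy had 127.0, 144.3 and 146.6 counts per 1000 marker counts in 5x21-OR1A1 libraries, against 169.4, 145.2 and 127.6 in wild-type libraries, a log2 difference of -0.07 (SE 0.14; two-sided exact permutation test, p = 0.6). Reep1 had 3.27, 3.40 and 3.45 in 5x21-OR1A1 libraries, against 3.31, 3.50 and 2.88 in wild-type libraries, a log2 difference of 0.07 (SE 0.087; two-sided exact permutation test, p = 0.7). The groups of both genes overlapped, and with 1 library left out the differences ran from -0.17 to 0.03 for Gfy and from -0.01 to 0.13 for Reep1. Reep6 had 4.40, 5.06 and 5.08 in 5x21-OR1A1 libraries, against 5.02, 3.22 and 2.98 in wild-type libraries, a log2 difference of 0.41 (SE 0.24; two-sided exact permutation test, p = 0.2). That difference was 0.64 without wild-type library 1, the only wild-type library within the 5x21-OR1A1 range, and 0.27 without wild-type library 3.

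The values depend on the markers that stand below the line. With the mean of log2 counts over the 12 markers in place of their sum, in which Omp weighs most, the differences were 0.26 for Rtp1, 0.27 for Rtp2 and -0.05 for Reep1. When all genes were scaled to the summed markers in edgeR, Rtp1 and Rtp2 were called higher (log2 fold changes 0.37 and 0.38, edgeR adjusted p = 0.0438 and 0.0248), and Gfy had a value of -0.08 (adjusted p = 0.659). The median of all genes was 0.69 on that scale and 14064 genes were called higher, so both Rtp genes still lay below the median gene. Scaled to the median log ratio of the markers, neither passed (edgeR adjusted p = 0.116 and 0.0903).

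**Figure D2:**
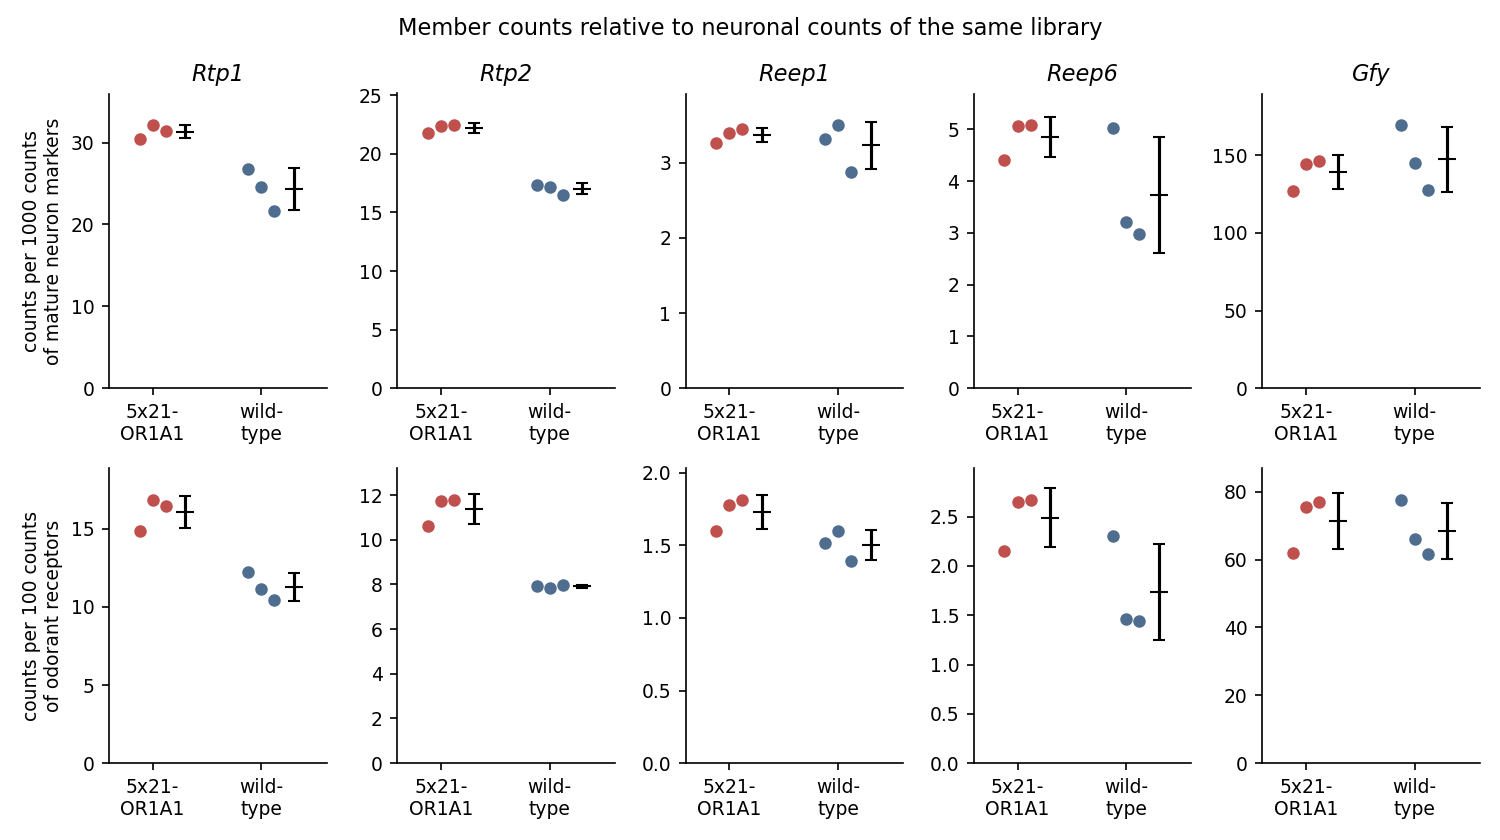
Counts of each member per 1000 counts of mature neuron markers (top) and per 100 counts of the mouse's odorant receptor genes (bottom) in each library, 3 of 5x21-OR1A1 (left) and 3 of wild-type (right), with the mean and SD as black bars and linear axes from 0. Rtp1 and Rtp2 lie higher in all 3 5x21-OR1A1 libraries in both rows, and Gfy overlaps between the groups in both. Both denominators were a smaller share of all counts in 5x21-OR1A1 libraries, which raises the ratio of a gene with an unchanged share.

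Odorant receptors, which RTP1 and RTP2 carry to the plasma membrane, were set beside the members as well. The 1106 odorant receptor genes of the mouse took 0.243% ± 0.0172 of counts in 5x21-OR1A1 and 0.430% ± 0.0712 in wild-type libraries (SD, n = 3 each). The table has no row for OR1A1, so the transgene's own RNA is not in these sums. Per 100 receptor counts there were 14.9, 16.8 and 16.5 counts of Rtp1 in 5x21-OR1A1 libraries, against 12.2, 11.2 and 10.5 in wild-type libraries. Rtp2 had 10.6, 11.7 and 11.8 counts in 5x21-OR1A1 libraries, against 7.95, 7.82 and 7.98 in wild-type libraries. The Rtp2 values of the 3 wild-type libraries were thus close together, which was not so for Reep6, and all 3 5x21-OR1A1 libraries lay above them for Rtp2. The log2 differences were 0.51 (SE 0.086) for Rtp1, 0.52 (SE 0.050) for Rtp2 and 0.20 (SE 0.080) for Reep1, each with no overlap of groups (two-sided exact permutation test, p = 0.1). Receptor counts were a smaller share of all counts in 5x21-OR1A1 libraries, so a gene with an unchanged share also stands higher by this measure. The share of all genes without overlap on this scale was not counted. Reep6 had 2.15, 2.65 and 2.67 counts per 100 receptor counts in 5x21-OR1A1 libraries, against 2.30, 1.47 and 1.44 in wild-type libraries. Its log2 difference was 0.55 (SE 0.24; two-sided exact permutation test, p = 0.2), with the groups overlapping through wild-type library 1. Gfy had 62.0, 75.6 and 77.0 counts per 100 receptor counts in 5x21-OR1A1 libraries, against 77.6, 66.1 and 61.7 in wild-type libraries, a log2 difference of 0.06 (SE 0.14; two-sided exact permutation test, p = 0.9) that ran from -0.0088 to 0.16 with 1 library left out. Against class II receptors alone, taken by their Olfr numbers, the log2 differences were 0.35 for Rtp1, 0.36 for Rtp2, 0.04 for Reep1, 0.39 for Reep6 and -0.10 for Gfy.

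The members were also compared with each other within a library, over all 10 pairs, a comparison added after these values were seen. Rtp1 stood at 0.240, 0.223 and 0.214 counts per count of Gfy in 5x21-OR1A1 libraries, against 0.158, 0.169 and 0.169 in wild-type libraries, a log2 difference of 0.45 (SE 0.059). Rtp2 per Gfy differed by 0.46 (SE 0.11) and Reep6 per Gfy by 0.49 (SE 0.13). Rtp1 and Rtp2 per Reep1 differed by 0.31 (SE 0.061) and 0.32 (SE 0.065). In these 5 pairs the groups did not overlap, and the two-sided exact permutation test gave p = 0.1 for each (0.2 after Benjamini-Hochberg adjustment over the 10 pairs), so no pair passed in a design that cannot go lower. The denominators Gfy and Reep1 had log2 fold changes of -0.76 and -0.63, against a median of 0.02 over all genes. A gene with no change thus also stands higher per count of either. The share of all genes without overlap on these scales was not counted. The groups overlapped in the other 5 pairs, Reep1 per Gfy among them (0.14, SE 0.0995; two-sided exact permutation test, p = 0.3).

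The relatives of the members had values on the other side of 0, and 0 of 5 passed edgeR (2 at an unadjusted p under 0.05, 0 by DESeq2 and 0 by limma-voom). All 5 tested relatives had positive log2 fold changes with a median of 0.19. Reep4 stood at 12.6 ± 1.14 CPM in 5x21-OR1A1 and 9.87 ± 0.796 CPM in wild-type tissue (log2 fold change 0.36, edgeR adjusted p = 0.182). Reep3 stood at 45.2 ± 0.905 and 39.8 ± 1.86 CPM in the same order (0.19, edgeR adjusted p = 0.239), and the groups did not overlap for either of these 2 genes (SD, n = 3 each), as for 11.4% of all genes in this direction. Reep2 (0.39) and Reep5 (0.16) overlapped between the groups, and Reep5 had 0.02 without wild-type library 2, 0.06 without 5x21-OR1A1 library 3 and 0.24 without 5x21-OR1A1 library 2 or wild-type library 3. Rtp4, an interferon-induced relative that lies between Rtp1 and Rtp2 on chromosome 16, had 6.87, 8.54 and 9.83 CPM in 5x21-OR1A1 libraries, against 9.88, 6.18 and 7.51 CPM in wild-type libraries (0.10, edgeR adjusted p = 0.855). Rtp3 had 1 count in 1 library of each genotype and was not tested.

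**Figure D3:**
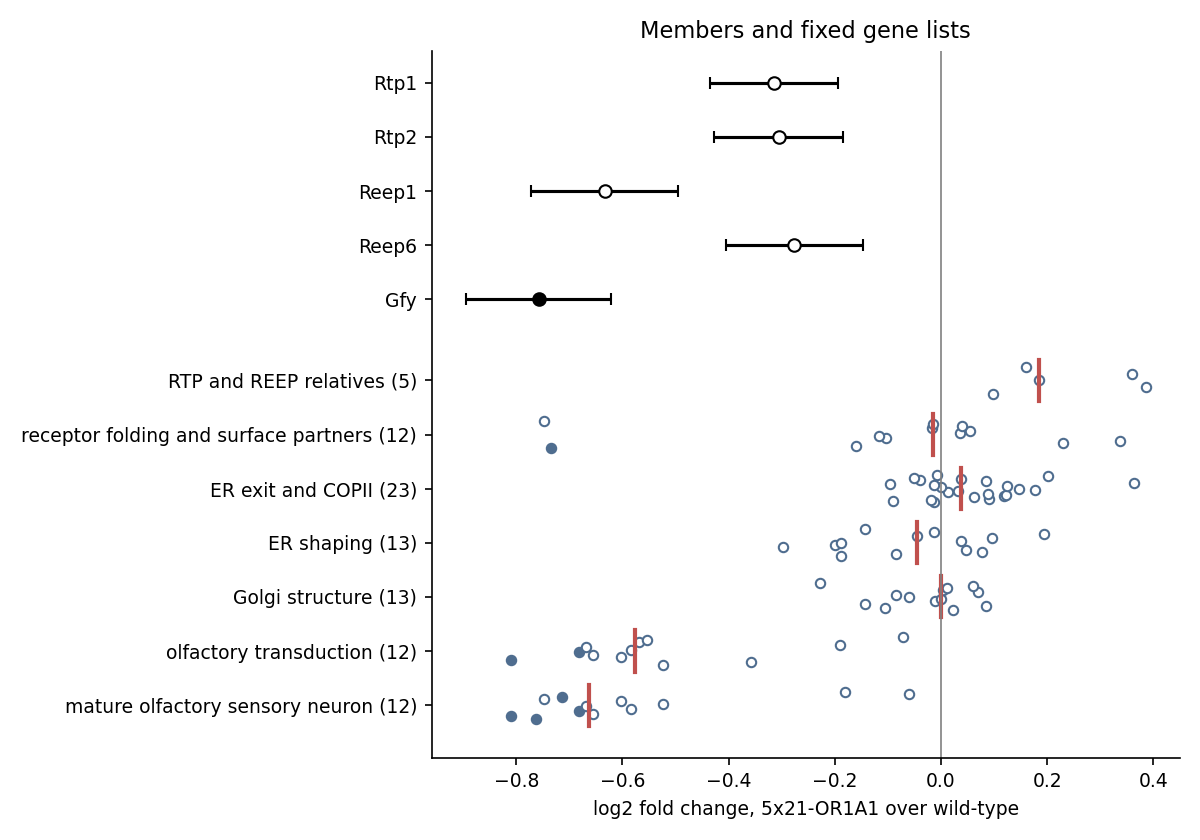
Log2 fold change, 5x21-OR1A1 over wild-type, of the 5 members with SE bars, and of each tested gene (dots) and the median (red bar) of 7 lists, the number tested in brackets. Filled symbols passed an edgeR adjusted p under 0.05. The members lie between -0.76 and -0.28, the medians of the mature neuron and transduction lists at -0.66 and -0.58, and those of the endoplasmic reticulum and Golgi lists close to 0. The mature neuron and transduction lists share genes, and Stoml3 is in both the mature neuron list and the list of receptor folding and surface partners.

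Among 12 genes for folding and surface delivery of receptors, 1 fell and 0 rose, with a median of -0.02, and DESeq2 and limma-voom each called 2. The gene that fell was Ric8b, an exchange factor and chaperone of the olfactory G protein that raises odorant receptor responses in cultured cells, at 347 ± 30.7 CPM in 5x21-OR1A1 and 578 ± 83.2 CPM in wild-type tissue (SD, n = 3 each), a log2 fold change of -0.74 (SE 0.13, edgeR adjusted p = 0.0285). Its call was lost without any 1 of the libraries other than wild-type library 1 (edgeR adjusted p = 0.0637 to 0.134), and with sex as a covariate (0.0617). Stoml3, a membrane protein of olfactory cilia, had a value of -0.75 and did not pass (edgeR adjusted p = 0.0538), but it was called by DESeq2 (adjusted p = 6.4e-06), by limma-voom (0.0409), without the filter on low counts (edgeR, 0.0191) and without wild-type library 1 (edgeR, 0.0249). It was not called with sex as a covariate (edgeR, 0.125), with the replicate block (0.0702) or without 5x21-OR1A1 library 1, 2 or 3 (0.191, 0.149 and 0.209). Without wild-type library 2 or 3 it was not called either (edgeR, 0.0985 and 0.103). Stoml3 is also among the mature neuron markers. Ric8a, the relative of Ric8b for other G proteins, had -0.16, and Chrm3, a muscarinic receptor that enhances odorant receptor signalling in culture, had 0.34 (edgeR adjusted p = 0.314 and 0.389).

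The general machinery of export did not yield a call. Of 23 genes for exit from the endoplasmic reticulum and its COPII coat, 0 passed edgeR (3 at an unadjusted p under 0.05, 0 by DESeq2 and 0 by limma-voom), with values from -0.10 to 0.36 and a median of 0.04. The lowest adjusted p were those of Cnih2, a cargo receptor of the cornichon family (0.36, edgeR adjusted p = 0.146), Lman1, a lectin cargo receptor (0.20), and the coat subunits Sec24d (0.18) and Sec31a (0.15). Of 13 genes that shape the endoplasmic reticulum, the wider function of REEP proteins, 0 passed edgeR (1 at an unadjusted p under 0.05, 0 by DESeq2 and 0 by limma-voom), with a median of -0.05. The reticulons Rtn2, Rtn3 and Rtn1 had -0.20, -0.19 and -0.30, and Zfyve27, a partner of REEP1, had -0.14. Without wild-type library 2 the values were -0.13 for Rtn2, -0.13 for Rtn1 and -0.07 for Zfyve27, and without wild-type library 1 Rtn1 had -0.45. Of 13 tested genes of Golgi structure 0 passed edgeR, with the same counts at an unadjusted p and by the other tools, and with a median of -0.0007. Tgoln1, of the trans-Golgi network, had -0.23, and Golga2, Golga4 and Gorasp2, which tether and stack Golgi membranes, had -0.11, -0.14 and -0.08. With 1 library left out, Golga4 ran from -0.24 to -0.06 and Gorasp2 from -0.14 to -0.04.

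Genes of olfactory transduction, the pathway that uses the delivered receptors, were closer to Gfy and Reep1. Of 12 tested, 2 fell and 0 rose, with a median of -0.58, and DESeq2 called 10. The 2 were Gng13 at 263 ± 10.9 CPM in 5x21-OR1A1 and 461 ± 88.9 CPM in wild-type tissue, and Cnga4 at 255 ± 22.4 and 409 ± 72.9 CPM in the same order (SD, n = 3 each; edgeR adjusted p = 0.0292 and 0.0469). Ano2, the ciliary chloride channel, had -0.67 and Pde4a, a phosphodiesterase, -0.55 (edgeR adjusted p = 0.0692 and 0.0713). Gng13, Cnga2, Cnga4, Cngb1, Ano2, Gnal and Adcy3 are also among the mature neuron markers, so the values of these lists are not separate.

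The genes whose profile over the 6 libraries came nearest to each member were found by the root mean square distance of centred log2 CPM among 10852 genes with a mean of at least 10 CPM. This is a description of these 6 libraries with no test. The values were centred and not scaled, so genes that fall together by different amounts also lie apart. The nearest to Rtp1 were Pygo1, Ttll7 and Ccdc92 (distances 0.024, 0.028 and 0.034), where the median gene had 0.223. The nearest to Rtp2 were Rap1gds1, Trim45 and Snap25 (0.031, 0.032 and 0.035), and Rtp1 was its neighbour number 55. The nearest to Reep1 were Ano2, Lrrn1 and Scn3b (0.052, 0.063 and 0.064). The nearest to Gfy were Kcnc4 and Cacnb3, subunits of ion channels, and Ptp4a3 (0.062, 0.063 and 0.066), with Reep1 at number 33 and Omp at number 86. The nearest to Reep6 were Ttll10, Lrrc45 and Rgs11 (0.045, 0.046 and 0.049), while Omp was number 9623 at a distance of 0.348, the largest distance between Omp and any of the 5 members. Omp was number 6978 for Rtp1 (0.252) and 6202 for Rtp2 (0.237), both beyond the median gene, and number 157 for Reep1 (0.141).

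**Figure D4:**
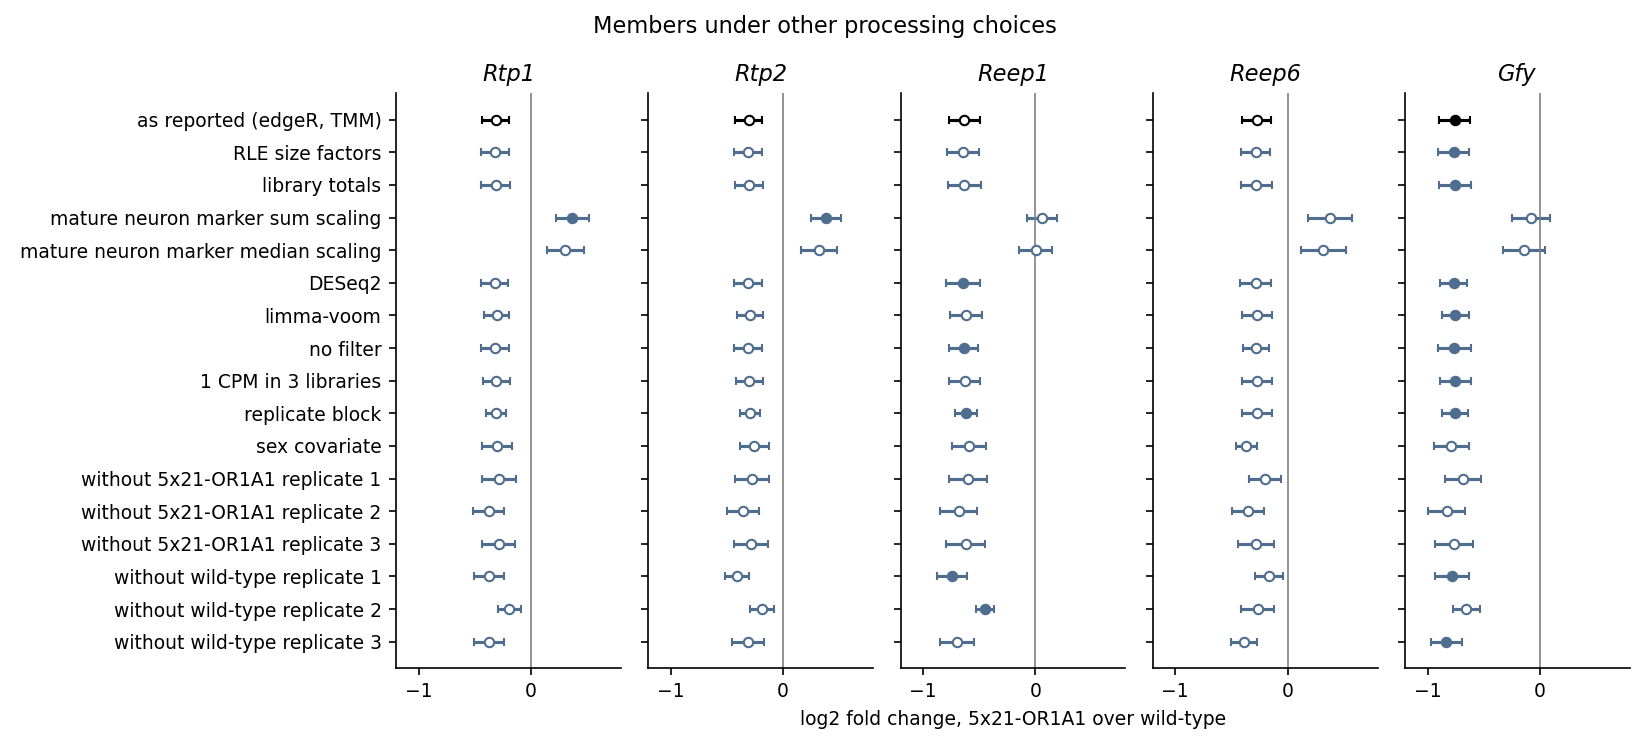
Log2 fold change of each member with SE bars under the main fit (black) and each alternative (blue), with symbols filled where the adjusted p was under 0.05. All values lie below 0 except those scaled to mature neuron markers, where Rtp1, Rtp2, Reep1 and Reep6 have positive values and Gfy -0.08 and -0.14.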

How the data were processed

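Gene counts of 6 libraries were taken raw, as the authors deposited them. The libraries were nonstranded, from poly-A RNA, and read as single ends, per the labels' protocols. The submitters' processing notes name TopHat2 2.1.1, HTSeq 0.9.1 and the build GRCm38.p5, and no source used here states the counting options. Library totals ran from 27506217 to 35804712 counts.

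The main test was edgeR's quasi-likelihood test of genotype (edgeR 4.0.16, R 4.3.3) after TMM scaling and the tool's own filter on low counts (minimum count 10, total 15), with Benjamini-Hochberg adjustment over the 19267 genes kept. SE is the log2 fold change over the square root of F. DESeq2 1.42.0 and voom in limma 3.58.1 were alternatives, and all 3 tools were checked on simulated counts. Places and exon lengths came from GENCODE M21 (GRCm38), where 49627 symbols were found once. Members and lists were chosen with earlier results of these data known. Named genes are the members, the 4 lowest adjusted p of each pathway list and of the mature markers, Omp, and the 3 nearest profiles of each member.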

Additional observations from a re-analysis of the deposited data

How the results depend on the processing

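Scaling to the summed mature neuron markers, which moved the median of all genes to 0.69, turned Rtp1 to 0.37, Rtp2 to 0.38, Reep1 to 0.061 and Reep6 to 0.38 and left Gfy at -0.082, with 0 members called lower and 2 higher and 0 pathway genes lower and 64 higher. Scaling to their median log ratio turned these 4 to 0.31, 0.32, 0.00099 and 0.31 and left Gfy at -0.14, with 0 members and 0 pathway genes lower and 60 pathway genes higher. Both scalings take the fall of these markers out of every gene. They also turned Ric8a to 0.52 and 0.45, Rtn2 to 0.48 and 0.42, Rtn3 to 0.49 and 0.43, Rtn1 to 0.40 and 0.34, Zfyve27 to 0.53 and 0.47, Tgoln1 to 0.44 and 0.38, Golga2 to 0.56 and 0.50, Golga4 to 0.52 and 0.46, Gorasp2 to 0.60 and 0.53 and Pde4a to 0.12 and 0.060, and the first turned Cnga4 to 0.0086 and Ano2 to 0.026.

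Of the members, DESeq2 called 2 lower (Reep1 at -0.64) and no filter 2 (Reep1 at -0.64). Xist passed 1000 counts in 2 of the 5x21-OR1A1 libraries and 1 of the wild-type libraries, so sex read this way was unbalanced between the groups. With sex as a covariate, read from Xist counts, 0 were called (Gfy -0.79, adjusted p = 0.0700), and at an adjusted p under 0.01 also 0 (Gfy -0.76). Pathway genes called lower numbered 3, and 12, 8, 0 and 0 under these 4 settings; why was not tested. The replicate block called 2 members (Reep1 at -0.62) and 5 pathway genes. Same-numbered libraries did not deviate together (correlations of -0.375, 0.123 and -0.0723), so the numbers were not taken as pairs.

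Leaving out 1 library gave -0.83 to -0.65 for Gfy, -0.74 to -0.45 for Reep1, -0.38 to -0.19 for Rtp1, -0.41 to -0.19 for Rtp2 and -0.39 to -0.17 for Reep6, 0 to 2 members called lower and 0 to 7 pathway genes called lower. Per mature neuron marker the range was 0.29 to 0.44 for Rtp1 and 0.36 to 0.40 for Rtp2. By the mean of log2 marker counts Rtp1 was 0.26, Rtp2 0.27 and Reep1 -0.050, and without Omp Rtp2 was 0.29. Against class II receptors alone Rtp1 was 0.35, Rtp2 0.36 and Reep1 0.044. With 3 libraries a group, or 1 left out, Rtp1, Rtp2 and Reep6 did not pass in any fit on the scale of all genes.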
